A study of Mus musculus with 8 samples.

Results

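The phosphatases encoded by Dusp1, Dusp2 and Dusp6 were followed on 8 arrays of total RNA from mouse double positive thymocytes, in a series on engagement of the T cell receptor with antibodies. The members are all 4 probe sets that the platform annotation maps to these 3 symbols alone, of 12422 other than controls, and so 3 of 8251 named genes: 1 for Dusp1, 1 for Dusp2, and a brighter and a dimmer one for Dusp6. The probe sets follow from the symbols alone, the 3 genes were proposed with earlier results of these data known, and all 4 probe sets passed the filter on dim probe sets. The titles give 4 groups of 2 arrays: Vbeta5 and Valpha2, named after variable segments of the receptor's beta and alpha chains, an overnight control, and a control. All groups share the cell type. The labels used here state no genotype, strain, age, antibody dose or time, and only the overnight control carries a word for its duration, so culture and antibody cannot be told apart in a comparison of Vbeta5 or Valpha2 with either control. Nothing in the labels says that the 2 arrays of a group had a culture or an animal each, so the p-values below measure only the spread between arrays, which may be technical.

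Double positive thymocytes are the stage at which a developing T cell first tests its complete receptor. Engagement of that receptor activates Ras and the kinases ERK, p38 and JNK, which are switched on by phosphate on a threonine and a tyrosine of the same loop. Dual specificity phosphatases remove both phosphates and so end the signal, and several of their genes are themselves switched on by the kinases they silence. Dusp2 encodes PAC-1, a nuclear phosphatase known from activated lymphocytes. Dusp1 encodes MKP-1, a nuclear phosphatase that acts on p38 and JNK and is induced by growth factors and stress. Dusp6 encodes MKP-3, a cytoplasmic phosphatase with a preference for ERK.

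The promoters are shown as a description of the 3 genes, of which only Dusp2 passed the threshold in any comparison below. Any link between these sequences and the signals was not tested. All 3 genes matched the RefSeq promoter table of build GRCm38.p6, and each sequence is the 250 bases before the annotated start, 5′ to 3′ on the gene's strand. Capitals mark every match, on either strand, to 8 motifs. The cyclic AMP response element (CRE) was searched as TGACGTCA. A short CRE was searched as TGACG, letters that also lie within each full CRE, once on each strand. The core of the sites of Ets factors was searched as GGAA. Sites of Egr factors were searched under a pair of spellings, of which one was GCGTGGGCG. The other of these spellings was GCGGGGGCG. The E-box was searched as CACGTG, and the AP-1 element was searched as TGACTCA. The TATA box was searched as TATAAA, and the CArG box, the serum response element, completed the set.
Dusp1, chr17:26508473-26508722, minus strand: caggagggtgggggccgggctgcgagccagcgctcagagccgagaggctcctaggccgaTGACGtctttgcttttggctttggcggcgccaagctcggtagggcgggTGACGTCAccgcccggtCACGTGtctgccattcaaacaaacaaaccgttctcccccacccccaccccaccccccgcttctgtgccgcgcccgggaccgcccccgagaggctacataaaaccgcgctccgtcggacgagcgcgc
Dusp2, chr2:127335909-127336158, plus strand: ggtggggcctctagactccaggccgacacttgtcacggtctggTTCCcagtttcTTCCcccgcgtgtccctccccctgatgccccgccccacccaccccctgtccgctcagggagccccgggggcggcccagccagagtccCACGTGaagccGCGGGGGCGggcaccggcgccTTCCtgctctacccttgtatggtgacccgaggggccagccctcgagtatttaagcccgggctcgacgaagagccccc
Dusp6, chr10:99262981-99263230, plus strand: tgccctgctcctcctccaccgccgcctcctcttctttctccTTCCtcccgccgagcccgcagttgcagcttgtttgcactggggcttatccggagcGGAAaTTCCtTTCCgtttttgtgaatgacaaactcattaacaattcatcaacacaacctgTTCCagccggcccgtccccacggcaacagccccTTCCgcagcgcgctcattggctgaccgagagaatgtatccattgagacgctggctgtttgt

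The Dusp1 window held 1 CRE, which 1.55% of the 32851 promoters of the same length also held, a separate short CRE (17.8% of promoters) upstream of it, and 1 E-box (6.02% of promoters). The Dusp2 window held 1 Egr match, found in 3.06% of promoters, 1 E-box and 3 Ets cores. The Dusp6 window held 6 Ets cores, a motif so short that 93.4% of promoters had at least 1. The Dusp1 window held 0 Ets cores. None of the 3 windows matched AP-1, TATA or the CArG box, which 4.46%, 12.4% and 1.47% of promoters held, so most promoters lack each of these too. G and C made up 68.4% of the Dusp1 window, 70.4% of the Dusp2 window and 56.4% of the Dusp6 window, against a median of 52.4% over all promoters. These matches are a description of letters and not of bound sites.

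The deposited signal is a linear intensity, and fold changes below are differences of log2(signal + 17) with their standard error (SE) from limma. The median signal of an array ranged from 73.65 to 110.25. The 3′ to 5′ ratio of the Gapdh control probe sets, a sign of RNA integrity, was counted as raised above a log2 value of 0.4. This held on 3 arrays, with 0.48 on Vbeta5 array 1, 1.72 on Valpha2 array 1 and 0.95 on overnight control array 1. On the other 5 it lay between -0.28 and -0.09. By the actin control probe sets the log2 values were 0.39, 1.47 and 0.68 on the 3 arrays, in the order given, and 0.004 to 0.297 on the other 5. Of 12 listed double positive markers 10 were on the array. Their summed signal was 20407 to 33451 in Vbeta5, 50872 to 63762 in Valpha2, 60803 to 61059 in the overnight control and 47304 to 51341 in the control. Of these 10, 2 fell in Vbeta5 against the overnight control, 2 against Valpha2 and 3 against the control, where 0.616%, 0.278% and 1.61% of all probe sets passed, and 0 rose. The part of this shift in the phosphatase signals was not tested. In RNA from whole samples, fewer cells of a type and less RNA per cell cannot be told apart.

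Dusp2 rose on the Vbeta5 arrays. Its signal was 2302 and 2195.7 on the Vbeta5 arrays, 598.3 and 1091.7 on the Valpha2 arrays, 749.4 and 800.2 on the overnight control arrays and 708.4 and 767.7 on the control arrays. Both Vbeta5 arrays thus lay above the other 6 arrays, which overlapped one another, and the 2 Valpha2 arrays held both the lowest and the highest of those 6. The group means were 2249 ± 75.2 in Vbeta5, 845 ± 349 in Valpha2, 775 ± 35.9 in the overnight control and 738 ± 41.9 in the control (SD, n = 2 each). In that order of levels, the 3 groups after Vbeta5 did not differ beyond their spread.

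**Figure D1:**
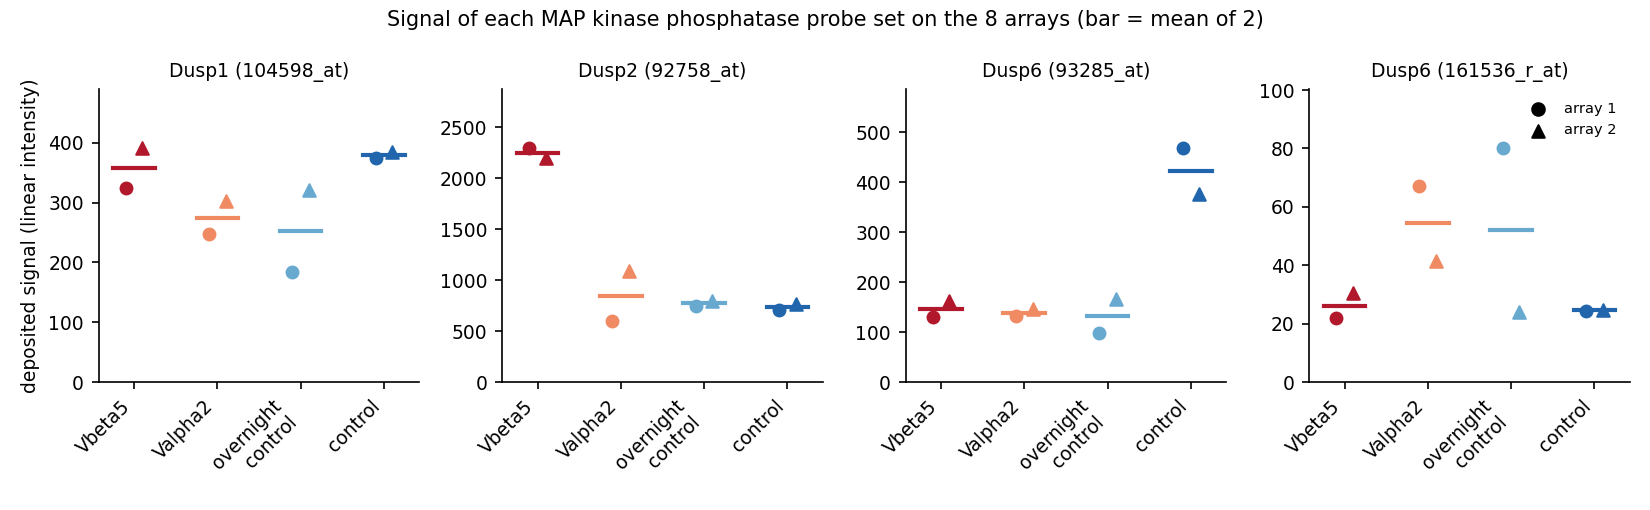
Deposited signal (linear, from 0) of the 4 probe sets on each array, by group, with circles for array 1, triangles for array 2 and a bar at the mean of 2. Dusp2 stands at 2302 and 2195.7 in Vbeta5 and at no more than 1091.7 elsewhere, while the brighter Dusp6 probe set stands at 469.7 and 376.7 in the control and at no more than 166.5 elsewhere.

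Between the Vbeta5 arrays and the overnight control, Dusp2 rose 2.86-fold (log2 fold change 1.52 ± 0.27 SE, 95% interval 0.91 to 2.13, limma adjusted p = 0.0414). Of the 8281 probe sets tested, 0.616% passed in this comparison and 0.35% passed as higher, and 74 probe sets, Dusp2 included, had a fold change as high as its own or higher. The arrays numbered 1 differed by 1.60 and those numbered 2 by 1.44. The separation of the 2 groups is less rare, since 15.9% of the probe sets had both Vbeta5 arrays above both overnight control arrays. The call was close to the threshold: leaving out 1 array at a time kept the fold change between 1.47 and 1.56 but ended the call for each of the Vbeta5, overnight control and control arrays, with adjusted p-values from 0.0827 to 0.317. It also ended at a common median of the arrays (1.55, adjusted p = 0.141) and without the variance trend (adjusted p = 0.200). Without the 3 arrays of raised 3′ to 5′ ratio the fold change was 1.44, from a single array in each of these 2 groups.

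Against the control, Dusp2 rose in Vbeta5 (log2 fold change 1.59 ± 0.27 SE, 95% interval 0.98 to 2.20, limma adjusted p = 0.0204). In this comparison 1.61% of the probe sets passed, with 51 higher and 82 lower, and 29.3% had both Vbeta5 arrays above both control arrays. After shifting the arrays to a common median the split was 18 higher and 72 lower, and Dusp2 had a fold change of 1.39 that did not pass (adjusted p = 0.111). Without the variance trend it did not pass either (adjusted p = 0.101). Leaving out either Vbeta5 array or either control array also ended the call, with fold changes from 1.53 to 1.64 and adjusted p-values from 0.108 to 0.197. The 2 comparisons share the Vbeta5 arrays and so are not independent.

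The direct comparison of Vbeta5 with Valpha2 sets the 2 antibody groups side by side, and the labels do not say whether dose and time were the same. Dusp2 was 2.74-fold higher in Vbeta5 (log2 fold change 1.46 ± 0.27 SE, 95% interval 0.85 to 2.06), a difference that did not pass (limma adjusted p = 0.0716), where 0.278% of all probe sets passed and 0.0966% passed as higher. Both Vbeta5 arrays lay above both Valpha2 arrays, as they did for 21.8% of the probe sets. Its size depended on the Valpha2 array used: it was 1.03 without Valpha2 array 1 (adjusted p = 0.643) and 1.88 without Valpha2 array 2 (adjusted p = 0.025). Valpha2 array 1, the array with the highest Gapdh ratio of all, had the lowest Dusp2 signal of the 8. The part of RNA integrity in that value was not tested.

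Dusp2 had no call with Valpha2. Its fold change was 0.06 ± 0.27 (SE) against the overnight control, with a 95% interval of -0.55 to 0.67 (limma adjusted p = 1), in a comparison where 0% of the probe sets passed. Against the control it was 0.13, with an interval of -0.48 to 0.74 (adjusted p = 0.958). The overnight control and the control differed by 0.07, with an interval of -0.54 to 0.68 (adjusted p = 0.952). The intervals reach 1.59-fold, 1.67-fold and 1.60-fold higher, in the order given, so they do not show that the groups were alike.

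Markers of other cell types had low signals, and their sums varied between groups and between the arrays of a group. Of the tested ones 0 passed in any comparison, where 0% to 1.61% of all probe sets passed, so that count is no result about them. For 8 markers of thymic epithelium, fibroblasts and endothelium the sum ran from 194 to 986 within the overnight control. The summed signal of 5 dendritic cell and MHC class II markers was 630 to 737 in Vbeta5, against 310 to 339 in Valpha2, 224 to 645 in the overnight control and 273 to 409 in the control. That of 6 macrophage and monocyte markers was 566 to 756 in Vbeta5, against 455 to 511 in Valpha2, 439 to 931 in the overnight control and 358 to 391 in the control. For 5 B cell markers it was 446 to 474 in Vbeta5, against 653 to 758 in Valpha2, 708 to 800 in the overnight control and 287 to 435 in the control. Every listed marker on the array had a signal above 0, and the macrophage genes ranged from Lyz2 at 2.4 to 11.6 to Cd14 at 130.5 to 420.1. The part of such cells in the Dusp2 signal was not tested.

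**Figure D2:**
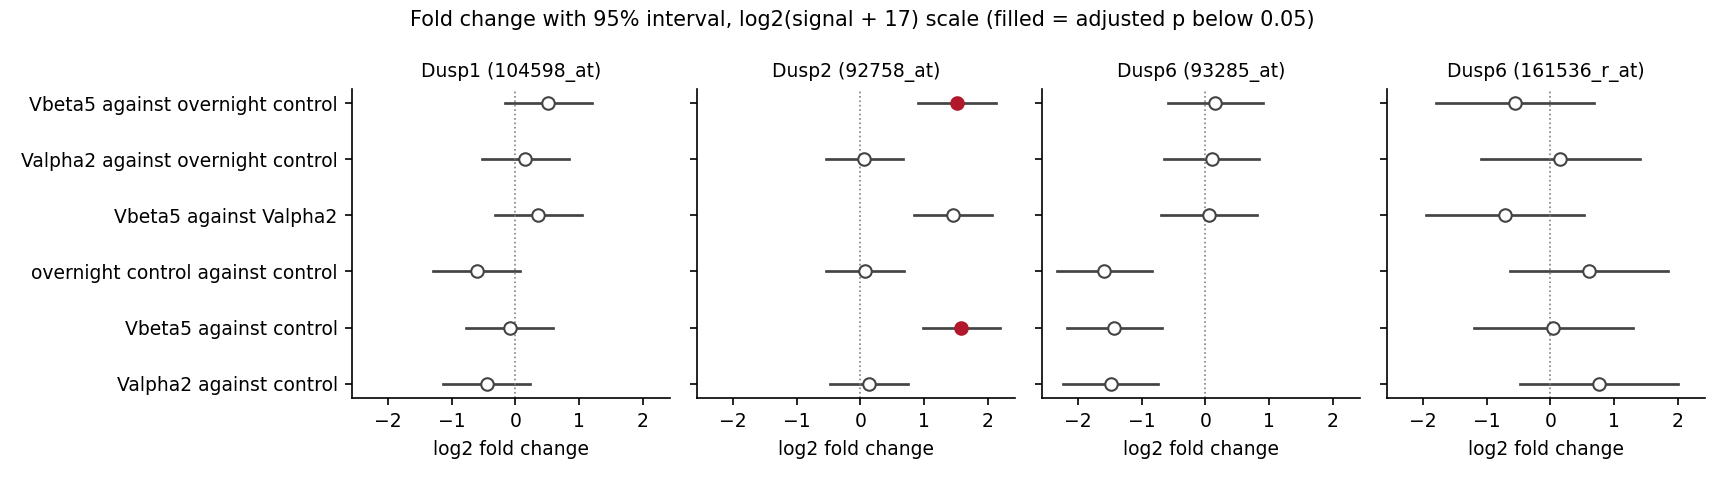
Log2 fold change of each probe set in the 6 comparisons, on the log2(signal + 17) scale, with bars for the 95% interval of the limma fit and filled points where the adjusted p is below 0.05. The filled points are Dusp2 in Vbeta5 against the overnight control (1.52) and against the control (1.59), and the 3 intervals of the brighter Dusp6 probe set against the control lie below 0 although none passed after adjustment.

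Dusp6 had another profile. By its brighter probe set the signal was 129.9 and 162.4 on the Vbeta5 arrays, 131.5 and 146.7 on the Valpha2 arrays, 98.9 and 166.5 on the overnight control arrays and 469.7 and 376.7 on the control arrays. Both control arrays lay above the other 6, and the other 3 groups overlapped one another. The group means were 146 ± 23.0 in Vbeta5, 139 ± 10.7 in Valpha2, 133 ± 47.8 in the overnight control and 423 ± 65.8 in the control (SD, n = 2 each).

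None of the 3 differences from the control passed over all probe sets. The overnight control differed from the control by -1.59 ± 0.34 (SE; 95% interval -2.33 to -0.84, limma adjusted p = 0.102), in a comparison where 0.181% of the probe sets passed. The ratio of the 2 mean signals, taken without the offset, was 0.314. The median of all probe sets was 0.10 in this comparison. At a common median of the arrays the median of all probe sets became -0.13 and the Dusp6 difference became -1.81 (adjusted p = 0.115). Vbeta5 differed from the control by -1.43 ± 0.34 (interval -2.18 to -0.68, adjusted p = 0.0757), and Valpha2 differed from it by -1.49 ± 0.34 (interval -2.24 to -0.74, adjusted p = 0.131), where 0.399% of the probe sets passed. All 3 differences use the same 2 control arrays. Under 18 alternative settings the 3 differences ran from -1.92 to -1.25, -1.63 to -1.28 and -1.64 to -1.34, in the order given. The overnight control passed in 2 of the 18, Vbeta5 in 4 and Valpha2 in 0. In the 3 comparisons 16.3%, 19% and 16.7% of the probe sets, in the order given, likewise had both arrays of the first group below both control arrays.

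Between the groups other than the control, Dusp6 by this probe set differed by 0.15 for Vbeta5 against the overnight control (95% interval -0.59 to 0.90), by 0.10 for Valpha2 against the overnight control (interval -0.65 to 0.84) and by 0.06 between Vbeta5 and Valpha2 (interval -0.69 to 0.81). The limma adjusted p-values lay between 0.985 and 1. The first and the second turned sign without overnight control array 1, and the third after quantile normalization and at a common median. An unchanged level was not shown, since the intervals reach 1.87-fold, 1.80-fold and 1.75-fold higher in the order given.

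The dimmer Dusp6 probe set did not follow the brighter one. It had signals of 21.9 and 30.4 in Vbeta5, 67.2 and 41.6 in Valpha2, 80.3 and 23.9 in the overnight control and 24.5 and 24.6 in the control. The control arrays were among the lowest here, where the brighter probe set had them highest. Its fold changes in the 6 comparisons ran from -0.71 to 0.76 and none passed (limma adjusted p from 0.75 to 1). The control values were barely above the offset of 17, so differences of this probe set are understated and uncertain. Over the 8 arrays, the 2 Dusp6 probe sets had a Pearson r of -0.59, a description of 8 arrays in 4 groups. The Dusp6 result therefore rests on 1 of 2 probe sets.

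Dusp1 varied least among the 3 genes by its largest ratio of group means. Its signal was 324.1 and 392.1 in Vbeta5, 247.8 and 302.2 in Valpha2, 183.9 and 321.6 in the overnight control and 374.5 and 385.6 in the control. Vbeta5 overlapped with the control only, and Valpha2 with the overnight control only. Such separation was common: 15.9% of the probe sets had Vbeta5 above the overnight control and 21.8% had Vbeta5 above Valpha2. The overnight control lay below the control for 16.3% of the probe sets, and Valpha2 below the control for 16.7%. The group means were 358 ± 48.1 in Vbeta5, 275 ± 38.5 in Valpha2, 253 ± 97.4 in the overnight control and 380 ± 7.85 in the control (SD, n = 2 each), so that the control was highest, followed by Vbeta5, Valpha2 and the overnight control. No neighbours in this order differed by a test that passed.

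Dusp1 did not pass in any of the 6 comparisons. It differed by 0.52 ± 0.31 (SE; 95% interval -0.17 to 1.20, limma adjusted p = 0.757) for Vbeta5 against the overnight control and by 0.36 (interval -0.32 to 1.05, adjusted p = 0.857) between Vbeta5 and Valpha2. Between the overnight control and the control it differed by -0.61 (interval -1.29 to 0.08, adjusted p = 0.591). The remaining 3 fold changes were 0.16 between Valpha2 and the overnight control, -0.09 between Vbeta5 and the control, and -0.45 between Valpha2 and the control (adjusted p from 0.834 to 1). The first of these turned sign without overnight control array 1 and the second without Vbeta5 array 1. The lowest signal, 183.9, came from overnight control array 1: without it, Vbeta5 differed from the overnight control by 0.14 and the overnight control from the control by -0.23. In each of the 4 groups, array 1 had the lower Dusp1 signal, and 3 of these 4 arrays had the raised Gapdh ratio. The part of RNA integrity in the Dusp1 values was not tested.

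Few other phosphatases of the family were measured. Of 7 other MAP kinase phosphatases listed, 3 were on the array (Dusp8, Dusp9 and Dusp16) and 2 had a tested probe set, of which 0 passed in any comparison. Dusp16, which encodes a phosphatase of JNK and p38, had signals of 56.1 to 122.7 over the 8 arrays by its brighter probe set. It stood at 56.1, 62.3 and 60 on Vbeta5 array 1, Valpha2 array 1 and overnight control array 1, and at 101.7 to 122.7 elsewhere. These 3 arrays had the raised Gapdh ratio, and the part of RNA integrity was not tested. Dusp16 differed by -0.50 between Valpha2 and the control (limma adjusted p = 0.892). Dusp9, which encodes a phosphatase with a preference for ERK, had signals of 25.6 to 121.3 by its tested probe set and differed by 0.87 between Valpha2 and the control (adjusted p = 0.851). The 121.3 came from Valpha2 array 1, while Valpha2 array 2 had 38.8, and the difference fell to 0.22 in leave-one-out fits. The other Dusp9 probe set, at 2.2 to 46.3, was not tested. Both Dusp8 probe sets were dim, at 4.7 to 44.6, and were not tested. Of 15 atypical dual specificity phosphatases, 3 were measured and 0 passed in any comparison. With 0% to 1.61% of all probe sets passing in a comparison, these counts of 0 are no result about the family.

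Of 13 measured genes of the Ras to ERK cascade 0 passed in any of the 6 comparisons. Since 0% to 1.61% of all probe sets passed in a comparison, a count of 0 in lists of this size and those below is near the background and is no result about the lists. In Vbeta5 against the overnight control their fold changes ran from -0.99 to 0.28 with a median of -0.11, against -0.01 over all probe sets. Of 15 measured genes of the p38 and JNK cascades 0 passed, with a median of -0.03 in that comparison. The 9 kinases and factors that MAP kinases act on had a median of 0.17, and the 10 other inhibitors of Ras to ERK signalling 0.09, again with 0 past the threshold in any comparison.

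Immediate early genes, which receptor and growth factor signals switch on within minutes and of which many answer to ERK, held every call of the 7 pathway lists. Of 17 measured, 3 rose in Vbeta5 against the overnight control, 0 fell and 14 did not pass, with 12 fold changes above 0 and a median of 0.60 (-0.01 over all probe sets). Of all probe sets 0.616% passed there and 0.35% passed as higher. Egr2, a zinc finger factor, had signals of 2200.4 and 3141.1 in Vbeta5, against 343.9 and 210.3 in the overnight control. It rose by 3.21 ± 0.36 (SE, limma adjusted p = 0.0106). Egr1 rose by 1.92 (adjusted p = 0.0106) and Ier2 by 1.77 (adjusted p = 0.0223). In each of these 3 genes both Vbeta5 arrays lay above both overnight control arrays, as in Dusp2 and in 15.9% of the probe sets.

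Against Valpha2, 2 of the 17 immediate early genes rose in Vbeta5, namely Egr1 and Egr2, and the median was 0.79 (0.02 over all probe sets), where 0.278% of all probe sets passed and 0.0966% passed as higher. Against the control 5 rose and the median was 1.16 (0.08 over all probe sets), where 1.61% of all probe sets passed and 0.616% passed as higher. The nuclear receptor gene Nr4a1 had signals of 3275.5 and 5184 in Vbeta5, against 158.8 and 217.8 in the control, a rise of 4.35 ± 0.53 (SE, limma adjusted p = 0.00773). Fos, which encodes a subunit of AP-1, rose by 2.39 (adjusted p = 0.0208), to 234.7 and 563.8 in Vbeta5, against 48.7 and 64.1 in the control. Egr2, Egr1 and Ier2 rose by 3.22, 1.48 and 1.91. In the 3 comparisons without Vbeta5, 0 of the 17 passed, with a median of -0.09 between Valpha2 and the overnight control, 0.19 between the overnight control and the control, and 0.32 between Valpha2 and the control. Nr4a1 differed by 1.70 between the overnight control and the control (limma adjusted p = 0.333) and by 1.84 between Valpha2 and the control (adjusted p = 0.300), with the same sign in every alternative. Without the 3 arrays of raised 3′ to 5′ ratio these differences of Nr4a1 were 1.97 and 2.85. That setting kept a single array in each group but the control.

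These calls were also close to the threshold. Against the overnight control, those of Egr2, Egr1 and Ier2 ended without Vbeta5 array 2 (adjusted p = 0.112, 0.112 and 0.309) and without the variance trend. That of Ier2 ended in 6 of 18 alternatives, also at a common median (adjusted p = 0.102), when Vbeta5 array 1 was left out (adjusted p = 0.0699), and when either array of the overnight control was (adjusted p = 0.111 for array 1 and 0.0593 for array 2). Against Valpha2, those of Egr1 and Egr2 ended in 9 and 7 of 18 alternatives, a common median among them. Against the control, that of Egr2 ended in 2, Egr1 in 6, Ier2 in 5, Nr4a1 in 2 and Fos in 4 of 18, and for all 5 leaving out either control array was among these. The signs of these 10 fold changes held in every alternative. Nr4a1 passed against the overnight control only in 5 of 18 alternatives (2.64, adjusted p = 0.0682 as reported).

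**Figure D3:**
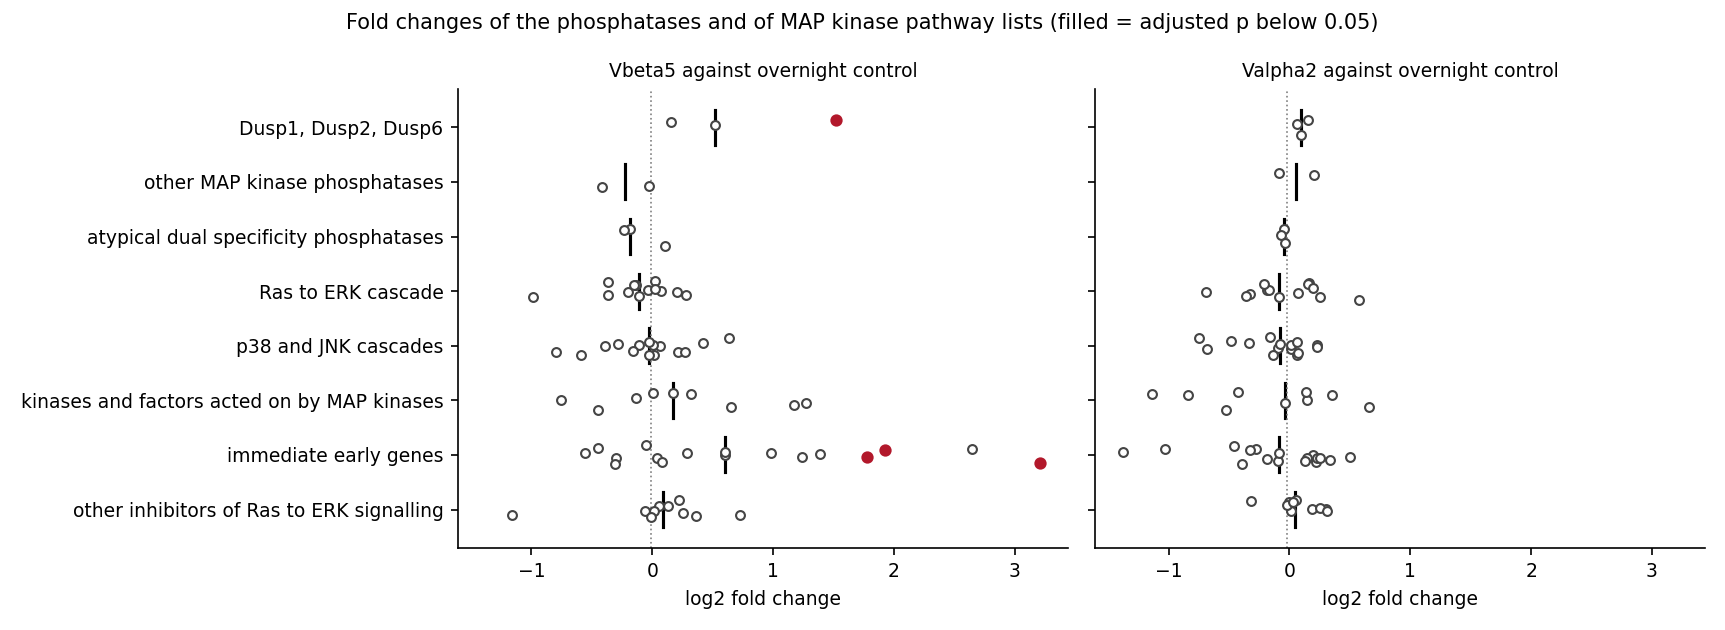
Log2 fold change of Dusp1, Dusp2 and Dusp6 (by the brighter probe set) and of the measured genes of 7 pathway lists, for Vbeta5 and for Valpha2 against the overnight control, with filled points where the adjusted p is below 0.05, a bar at each list's median and a dotted line at the median of all probe sets. The filled points are Dusp2 and 3 immediate early genes with Vbeta5, and there are 0 with Valpha2.

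Each of the 3 phosphatases had other genes with the profile most like its own. Likeness was the Pearson r of log2(signal + 17) over the 8 arrays with 6093 other genes, given as a description, since the highest of so many values are high by selection and the arrays share 4 groups. For Dusp2 they were Sh3bp2 (r = 0.997), which encodes an adaptor protein, Basp1 (0.987), the calcium-dependent factor Nfatc1 (0.981), the Egr corepressor Nab2 (0.975) and Ier2 (0.973). Sh3bp2 had signals of 435.3 and 433.5 in Vbeta5, 77.9 and 159.2 in Valpha2, 93.6 and 100.7 in the overnight control and 90.7 and 98.8 in the control. As with Dusp2, its lowest and highest values outside Vbeta5 were both in Valpha2.

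For Dusp6 by its brighter probe set the genes were Uhrf1 (r = 0.987), Anln (0.986), Pcna (0.981), Rrm1 (0.980) and Tnk2 (0.979). Uhrf1 and Pcna act at replication forks, Anln in the division of the cell and Rrm1 in making deoxynucleotides. Pcna had signals of 815.8 and 1204.3 in Vbeta5, 830.1 and 1100.5 in Valpha2, 546.2 and 1098 in the overnight control and 2804.4 and 2654.9 in the control, with both control arrays above the other 6. For Dusp1 the genes were Prpf31 (0.984), Ppie (0.983), Rpa1 (0.983), Psmb5 (0.966) and Slc35e1 (0.964), and in all 5 overnight control array 1 was the lowest of the 8, as in Dusp1. Among the members, r was 0.38 between Dusp1 and Dusp2, 0.69 between Dusp1 and Dusp6, and -0.28 between Dusp2 and Dusp6.

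**Figure D4:**
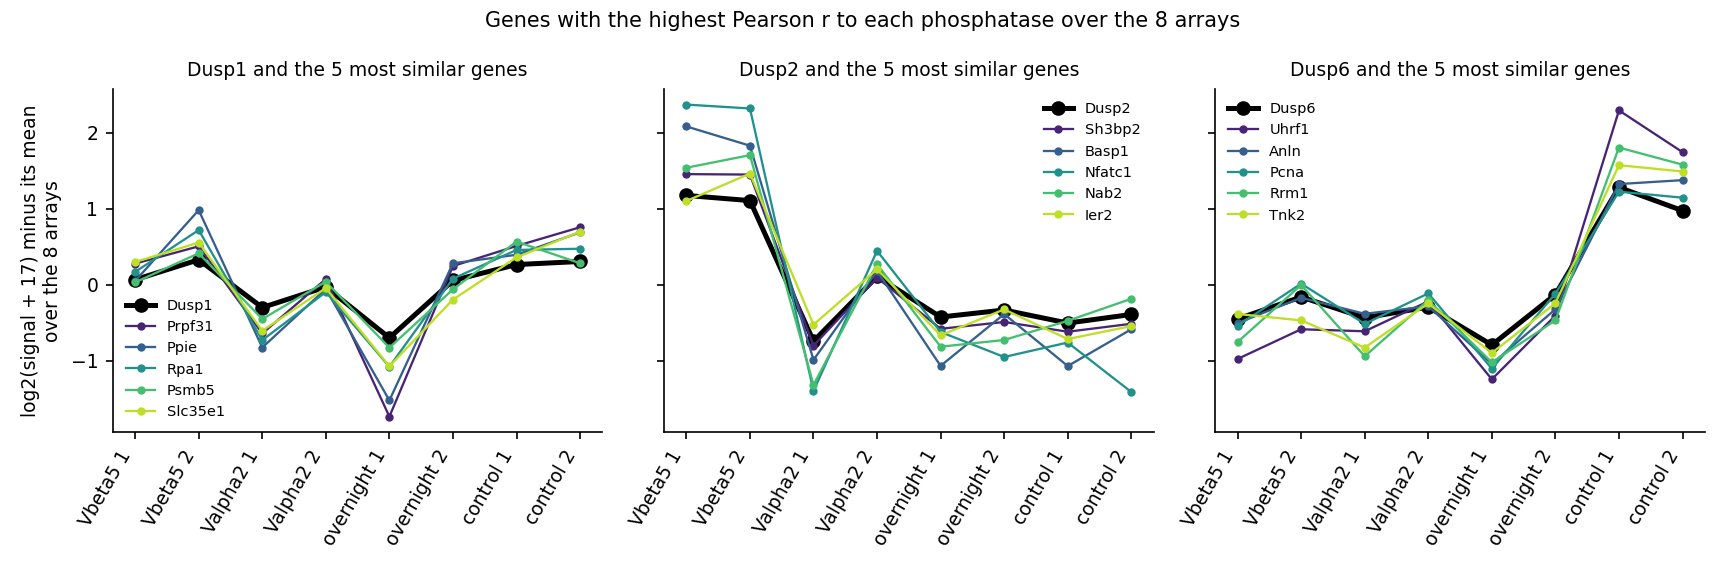
Log2(signal + 17) minus its mean over the 8 arrays, for each phosphatase (black) and the 5 genes with the highest Pearson r to it, with lines joining the arrays of 1 gene for reading only. The Dusp2 panel is high on both Vbeta5 arrays, the Dusp6 panel on both control arrays, and the Dusp1 panel is lowest on overnight control array 1.

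**Figure D5:**
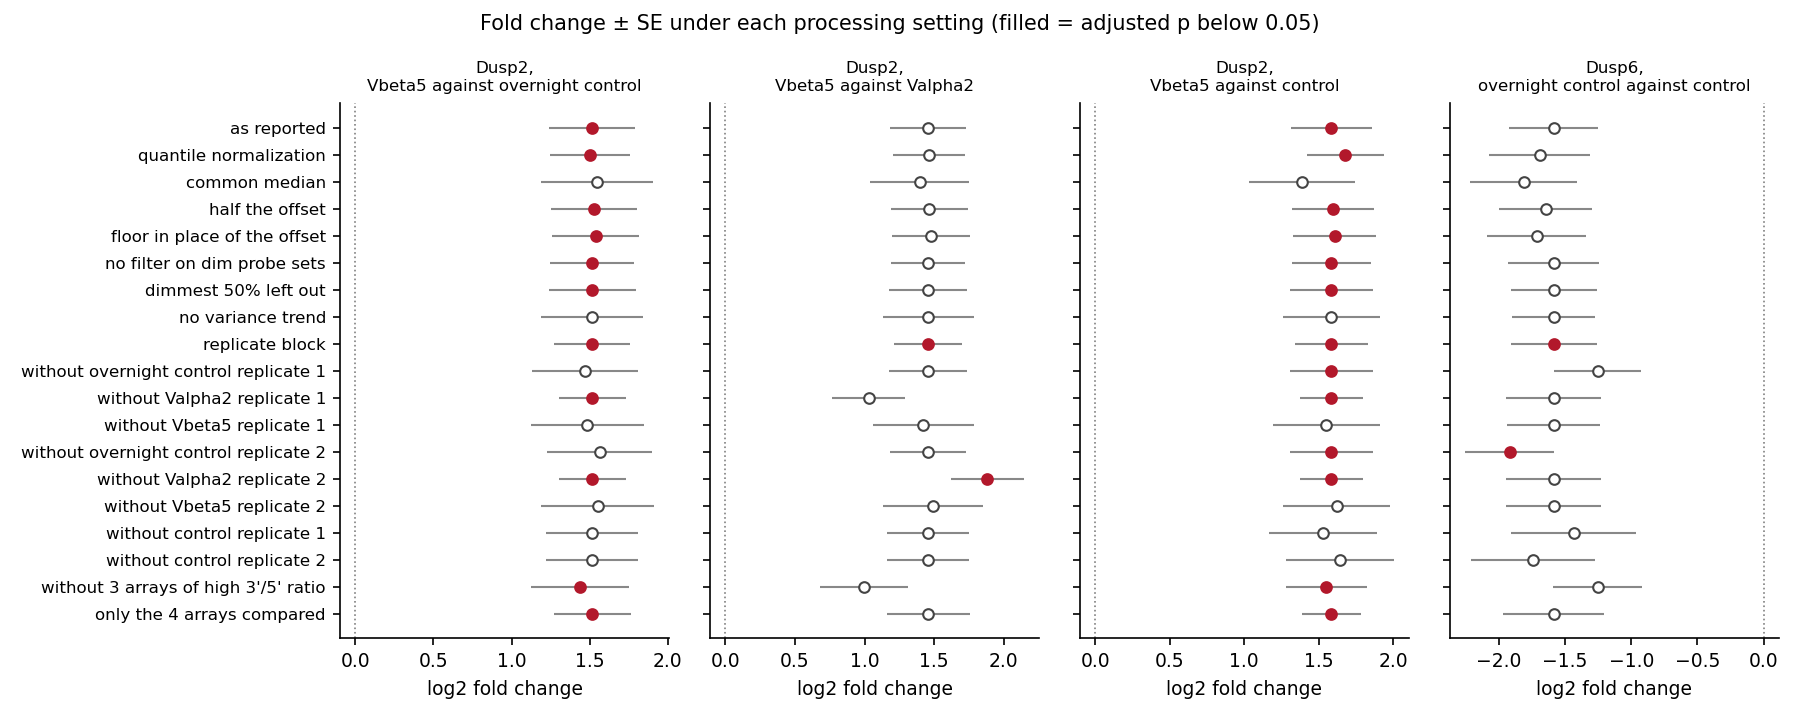
Log2 fold change ± SE of Dusp2 in 3 comparisons and of Dusp6 (brighter probe set) in 1, as reported and under 18 other settings, with filled points where the adjusted p is below 0.05. The fold change of Dusp2 in Vbeta5 against the overnight control stays between 1.44 and 1.56 while its call comes and goes, and that of Vbeta5 against Valpha2 ranges from 1.00 to 1.88, both ends in settings that leave out a Valpha2 array.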

How the data were processed

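Total RNA of 8 samples was measured on 8 arrays, with 1 array for each sample. The authors deposited 1 table of intensity values for 12488 probe sets. They are normalized values per the labels, by a software and method that the sources used here do not name. The mean after trimming 2% at each end was 250.14 to 250.16 on every array. No detection calls were used. Precision is limited by the small number of arrays.

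The 66 control probe sets were left out, and log2(signal + 17) was taken, 17 being the 20th percentile of the positive values. A filter on the mean removed the lowest 33.3%, which left 8281. One mean per group was fitted over the 8 arrays with limma 3.58.1 in R 4.3.3 (eBayes, trend = TRUE; degrees of freedom 4 residual, 6.33 prior), and p-values are two-sided with Benjamini-Hochberg adjustment over all probe sets of a comparison, at a threshold of 0.05. With 2 arrays a group, p = 0.333 is the smallest value of an exact permutation test, so none was run. The fit was also run on simulated data with the same spread for all probe sets, which does not test the variance trend or the calls above.

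Symbols are those of the platform annotation, brought up to date with RefSeq (GRCm38.p6): 10833 probe sets had 1 symbol, 396 several and 1193 none. For a list gene the brightest of its tested probe sets was used. The members and lists were chosen with earlier results of these data known. Named are all member probe sets, the other MAP kinase phosphatases, list genes that passed somewhere, and the 5 genes most like each member; a list gene that did not pass has a fold change only where its sign held in every alternative. The alternatives were another scaling, offset, filter or variance model, an array number block, the compared arrays alone, and leaving out arrays.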

Additional observations from a re-analysis of the deposited data

How the results depend on the processing

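Under 18 alternatives, Dusp2 kept its direction in all 3 comparisons of Vbeta5, the values of the brighter Dusp6 probe set against the control stayed below 0, and the calls were less stable than the values. The call of Dusp2 against the overnight control ended at a common median (1.55), without the variance trend (1.52) and in leave-one-out fits (1.47 to 1.56), and that against the control ended at a common median (1.39), without the trend (1.59) and in leave-one-out fits (1.53 to 1.64). The cause was not tested. The array numbers share no stated litter, batch or day, and with 2 numbers a comparison has only 2 pairs, so they were not taken to pair the arrays. Same-numbered arrays of 2 groups deviated together at r = 0.104 to 0.345 over probe sets. With the replicate block, Dusp2 passed for Vbeta5 against Valpha2 (1.46, adjusted p = 0.0173), and Dusp6 passed for the overnight control (-1.59) and Vbeta5 (-1.43) against the control. So did Nr4a1 for the overnight control (1.70, adjusted p = 0.0386) and Valpha2 (1.84, adjusted p = 0.0277) against the control, and for Vbeta5 against the overnight control (2.64, adjusted p = 0.0032) and Valpha2 (2.51, adjusted p = 0.00739), and Ier2 for Vbeta5 against Valpha2 (1.44, adjusted p = 0.0131). Dusp6 in Vbeta5 against the control also passed with the 4 arrays alone (-1.43). Leave-one-out values were 1.03 to 1.88 for Dusp2 in Vbeta5 against Valpha2, and for Dusp6 -1.92 to -1.25 (overnight control against control) and -1.58 to -1.28 (Vbeta5 against control).

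Values without a call turned sign as follows. At a common median, Dusp2 was -0.16 for the overnight control and -0.0067 for Valpha2 against the control, the brighter Dusp6 probe set was -0.0012 for Vbeta5 against Valpha2, and the dimmer one -0.15 for Vbeta5 against the control. After quantile normalization the last pair were -0.019 and -0.22. Without the 3 arrays of raised 3′ to 5′ ratio, Dusp1 was -0.085 for Valpha2 against the overnight control and 0.043 for Vbeta5 against the control, the brighter Dusp6 probe set was -0.033 and -0.16 for Vbeta5 and Valpha2 against the overnight control, and the dimmer one was 0.21 for Vbeta5 against the overnight control and -0.023 for the overnight control against the control. In leave-one-out fits, Dusp1 ran from -0.22 to 0.53 (Valpha2 against overnight control) and -0.22 to 0.043 (Vbeta5 against control), Dusp2 from -0.36 to 0.49 (Valpha2 against overnight control) and -0.29 to 0.56 (Valpha2 against control), the brighter Dusp6 probe set from -0.18 to 0.49 (Vbeta5 against overnight control), -0.24 to 0.43 (Valpha2 against overnight control) and -0.086 to 0.20 (Vbeta5 against Valpha2), and the dimmer one from -1.18 to 0.070, -0.47 to 0.78, -0.023 to 1.23 and -0.095 to 0.19 (Vbeta5 and Valpha2 against overnight control, then overnight control and Vbeta5 against control).

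Counts of calls moved as follows from the 51 of Vbeta5 against the overnight control: 28 at a common median, 0 without the trend, 124 with the block, 144 without the 3 arrays, 28 with the 4 arrays alone and 0 to 54 in leave-one-out fits. For Vbeta5 against Valpha2 the 23 became 0 at a common median, without the trend and with the 4 arrays alone, 90 with the block, 41 without the 3 arrays and 0 to 31 in leave-one-out fits. For the overnight control against the control the 15 became 0 without the trend, 99 with the block, 69 without the 3 arrays, 31 with the 4 arrays alone and 0 to 119 in leave-one-out fits. For Vbeta5 against the control the 133 became 20, 235, 293 and 209 in the same order, and 0 to 181. For Valpha2 against the control the 33 became 11 at a common median, 13 after quantile normalization, 10 with a floor, 10 with no filter, 0 without the trend, 89 with the block, 53 without the 3 arrays, 52 with the 4 arrays alone and 0 to 45 in leave-one-out fits. For Valpha2 against the overnight control limma called 0, with 134 below an unadjusted p of 0.05, and 0 to 1 in leave-one-out fits. Leaving out the dimmest 50% removed the dimmer Dusp6 probe set and the Dusp9 probe set, which then had no value. The fits without the 3 arrays kept a single array in each group but the control. Only the control arrays then gave a spread between arrays, so these counts do not compare replicated groups.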

Other observations

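The dimmer Dusp6 probe set and the tested Dusp9 probe set, a pair singled out after their values were seen, were highest on the same 2 arrays. For Dusp9 that probe set had signals of 121.3 on Valpha2 array 1 and 118.8 on overnight control array 1, and of 25.6 to 43.1 on the other 6 arrays. The dimmer Dusp6 probe set had 67.2 and 80.3 on these 2 arrays and lay between 21.9 and 41.6 on the others. These 2 arrays had the highest Gapdh 3′ to 5′ ratios, with log2 values of 1.72 and 0.95. The part of RNA integrity in these signals was not tested.

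Dusp12, an atypical dual specificity phosphatase gene also picked after its values were seen, had signals of 280.3 and 141.8 on the 2 Vbeta5 arrays, the highest and the lowest of the 8, against 153.7 to 185.3 on the other 6. Dusp11 had signals of 396.9 to 561 over the 8 arrays.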
